A study of Mus musculus with 8 samples.

Results

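Imprinted genes and noncoding RNAs of neurons were examined in primary motor cortex (M1) of mice after knockdown of *Fezf2*, a zinc finger transcription factor of deep-layer projection neurons. The members were 10 named genes (*Meg3*, *Rian*, *Mirg*, *Snhg14*, *Snrpn*, *Ube3a*, *Ndn*, *Peg3*, *Peg13* and *Trappc9*), each represented by its transcript with the lowest Ensembl number among the 38031 genes of the count table. A row was matched for 8 of them, and all 8 passed the filter on low counts that left 9959 genes. *Snhg14* and *Peg13* had no matched row and were not analysed here as genes of their own, although reads from both loci fall into other rows described below. Male Swiss Webster mice were injected at postnatal days 21 to 25 (P21 to P25) with a lentivirus carrying mCherry and either a *Fezf2 shRNA* or a *non-silencing shRNA*, with 4 libraries of each, and M1 was collected at P49 to P53. In both groups mCherry and the shRNA, embedded in mir-30 sequence, were transcribed from a rat *Synapsin I* promoter fragment that is active in neurons. Tissue was dissected by mCherry and held all cortical layers and the meninges, so that cells without virus were part of every sample. The controls carried the same vector with a non-silencing hairpin.

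In an imprinted gene only the copy from the mother or only the copy from the father is active, and the choice is kept by DNA methylation set in the germ line. Imprinted genes sit in clusters in which protein-coding genes alternate with long noncoding RNAs that host snoRNAs and miRNAs, and many of them are highly transcribed in neurons. In the Dlk1-Dio3 cluster the maternal copy makes the noncoding RNAs *Meg3*, *Rian* and *Mirg*. In the Prader-Willi/Angelman cluster the paternal copy makes *Snrpn*, *Ndn* and the long snoRNA host *Snhg14*, whose extension in neurons runs antisense through *Ube3a* and keeps the paternal *Ube3a* silent. The counts described here do not separate the parental copies, so that no value below measures imprinting itself.

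Promoters of 4 members are printed because they lie at or next to the start of the intervals whose counts follow and represent 3 imprinted clusters. Each sequence is 300 bases, from 250 before to 50 after the start of transcription, and comes from RefSeq (build GRCm38.p6). Capitals mark TGCCGC or its reverse complement, the core of the motif known for ZFP57, a protein that binds methylated imprinting control regions. The *Meg3* promoter is chr12:109540746-109541045 (plus strand), that of *Snrpn* is chr7:60005150-60005449 (minus strand), that of *Peg3* is chr7:6730370-6730669 (minus strand) and that of *Ube3a* is chr7:59228500-59228799 (plus strand).
Meg3: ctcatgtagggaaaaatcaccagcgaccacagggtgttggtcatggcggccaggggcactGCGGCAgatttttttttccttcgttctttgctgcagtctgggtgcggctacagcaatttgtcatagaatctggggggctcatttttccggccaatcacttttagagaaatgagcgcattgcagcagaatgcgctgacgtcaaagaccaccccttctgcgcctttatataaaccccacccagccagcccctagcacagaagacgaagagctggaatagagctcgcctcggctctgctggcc
Snrpn: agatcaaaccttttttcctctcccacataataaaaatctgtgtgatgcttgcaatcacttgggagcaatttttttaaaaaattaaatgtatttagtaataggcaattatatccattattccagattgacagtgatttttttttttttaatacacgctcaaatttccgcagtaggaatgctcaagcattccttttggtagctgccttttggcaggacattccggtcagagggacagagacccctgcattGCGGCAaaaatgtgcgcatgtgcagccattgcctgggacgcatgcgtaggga
Peg3: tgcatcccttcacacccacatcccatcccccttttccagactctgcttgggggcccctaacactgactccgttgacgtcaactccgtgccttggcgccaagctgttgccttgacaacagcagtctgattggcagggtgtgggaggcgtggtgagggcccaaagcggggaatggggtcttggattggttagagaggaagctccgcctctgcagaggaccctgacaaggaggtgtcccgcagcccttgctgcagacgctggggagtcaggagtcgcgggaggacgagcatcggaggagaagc
Ube3a: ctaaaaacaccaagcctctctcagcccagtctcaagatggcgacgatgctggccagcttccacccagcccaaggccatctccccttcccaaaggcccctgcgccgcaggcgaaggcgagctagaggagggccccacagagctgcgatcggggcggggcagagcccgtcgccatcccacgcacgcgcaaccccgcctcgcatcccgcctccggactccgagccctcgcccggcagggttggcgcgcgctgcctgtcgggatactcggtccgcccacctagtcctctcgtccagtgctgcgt
The *Meg3* and *Snrpn* promoters each held 1 match, and the *Peg3* and *Ube3a* windows held 0. Of 32851 promoters of this length, 11.6% held the motif on either strand. CpG dinucleotides, the sites of methylation, numbered 4.33 per 100 bases at *Meg3* and *Peg3*, 2.33 at *Snrpn* and 9.67 at *Ube3a*, against a median of 2.33 over all promoters with quartiles of 1.0 and 6.67. The table held 12 promoters for 8 of the members, with the window chr7:60450128-60450427 listed for both *Snhg14* and *Snrpn*. Of the 12 entries, 2 held the motif. These matches describe the letters only.

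RNA-seq of total RNA gave 54684016 to 58003814 counts on genes per library, of which the 8 members took 0.152% to 0.182%. The counts run over exons and introns alike, from the first to the last base of a transcript, and levels are given as normalized counts, which are counts scaled to a common effective library size. The targeted gene *Fezf2* had 688, 767, 735 and 702 normalized counts in the controls and 621, 583, 568 and 593 with *Fezf2 shRNA*. Every library with *Fezf2 shRNA* lay below every control. The log2 fold change of *Fezf2* was -0.29 (SE 0.076), with an adjusted p of 0.0765 by the quasi-likelihood test of edgeR, against 0.05 as the threshold. Over all genes tested, changes followed the length of the counted interval, with a median log2 fold change of -0.12 for 2154 genes under 10 kb and 0.29 for 407 genes over 300 kb. The titles number the replicates, and nothing states that a number marks shared litters or days.

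None of the 8 members with a row passed the threshold between *Fezf2 shRNA* and *non-silencing shRNA* M1 by edgeR, where a call required both an adjusted p no higher than 0.05 and a log2 fold change no smaller than 0.2 in either direction. By this rule 218 of 9959 genes were called, which is 2.19% of genes tested (2.06% increased and 0.131% decreased). At an unadjusted p under 0.05 there was 1 member, *Ube3a*, of the 8, against 19.7% of genes tested, and DESeq2 called *Ube3a* alone, where it called 7.55% of genes tested without its prior and 7.37% with it. The treatments overlapped for all 8 members, whereas they did not overlap for 11.8% of genes tested (7.41% with *Fezf2 shRNA* higher and 4.41% with it lower). The log2 fold change was above 0 for 2 members and below 0 for 6, with a median of -0.07 against -0.03 over all genes tested. In whole M1 tissue, fewer cells of a type and less RNA per cell cannot be told apart in any of these values.

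**Figure D1:**
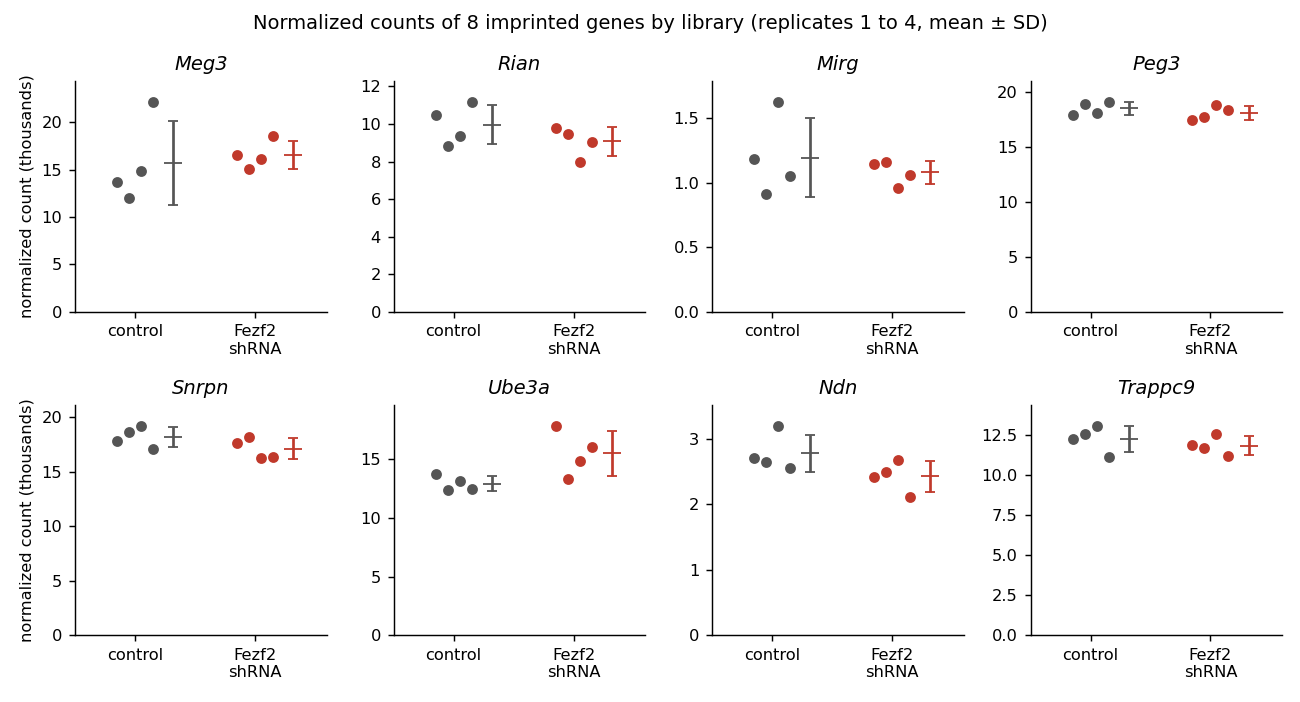
Normalized counts (vertical axis, in units of 1000, from 0) of the 8 members with a row, for 4 control libraries (grey, replicates 1 to 4 from left to right) and 4 Fezf2 shRNA libraries (red). Bars show the mean ± SD beside the points, and control replicate 4 of Meg3 (22121) and control replicate 3 of Mirg (1626) stand above the rest of their group.

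Per kb of counted interval, *Rian* was the most abundant member in the controls at 1127 ± 119 normalized counts per kb (SD, n = 4). *Meg3* followed at 862 ± 245, *Snrpn* at 803 ± 41.0, *Ndn* at 751 ± 78.2 and *Peg3* at 697 ± 22.0 normalized counts per kb. Each of these 5 neighbours in the order differed from the next by no more than the sum of their SDs. Lower levels were found for *Mirg*, at 321 ± 82.9 normalized counts per kb, for *Ube3a* at 166 ± 7.86 and for *Trappc9* at 26.3 ± 1.80, and these 3 were separated from their neighbours by more than that. Of the genes tested, 95.6% had a level per kb at or below that of *Rian* and 25.7% one at or below that of *Trappc9*. These levels dilute spliced RNA by the introns, since the *Rian* and *Ndn* intervals are wholly exonic against 1.52% of the *Trappc9* interval. The order also depends on which part of a gene was counted. In the controls the 5′ part of *Meg3* had 1424 normalized counts per kb and its 3′ part 1244, both above the *Rian* interval. The 5′ part of *Rian* had 284 and its 3′ part 1054.

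*Meg3*, the long noncoding RNA that opens the maternally expressed array on chromosome 12, was counted over chr12:109541007-109559189 (plus strand, ENSMUST00000124106, 18.2 kb). It had 13720.1, 12034, 14818 and 22121 normalized counts in the controls and 16519, 15101, 16083 and 18578 with *Fezf2 shRNA*. Control replicate 4 was the highest of the 8 libraries, the other 3 controls were below all 4 *Fezf2 shRNA* libraries, and the groups overlapped. The log2 fold change was 0.08 (SE 0.16, adjusted p = 0.802 from edgeR). Leaving out control replicate 4 moved it to 0.30 (adjusted p = 0.182), and leaving out control replicate 2 to -0.028. It was 0.021 without control replicate 1 or without *Fezf2 shRNA* replicate 4, 0.12 without *Fezf2 shRNA* replicate 2, 0.15 with an offset for interval length and 0.0068 with the widest transcript. The controls of *Meg3* varied by 28.4% (coefficient of variation), a spread larger than that of 98.1% of genes tested, whose median was 8.26%. The same library was the highest for both the 5′ part of *Meg3* (8719 normalized counts over 4.32 kb) and its 3′ part (42857 over 25.3 kb).

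*Rian*, a long noncoding RNA whose introns and exons hold box C/D snoRNAs, was counted over its 3′ portion at chr12:109646162-109655009 (plus strand, ENSMUST00000180876, 8.85 kb). Normalized counts of *Rian* were 10493, 8843, 9375 and 11171 in the controls and 9793, 9472, 7998 and 9052 with *Fezf2 shRNA*. The 2 highest libraries were controls and the lowest was a *Fezf2 shRNA* library, with overlap between them. Its log2 fold change was -0.14 (SE 0.088, adjusted p = 0.406 from edgeR). It was -0.074 without control replicate 4, -0.075 without *Fezf2 shRNA* replicate 3 and -0.036 with an offset for interval length fitted in each library. The widest *Rian* transcript, which covers the 5′ portion instead, gave 0.18 (adjusted p = 0.284), the opposite direction.

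*Mirg*, the miRNA host at the end of the array, was counted over chr12:109737780-109741503 (plus strand, ENSMUST00000181496, 3.72 kb). The controls had 1186, 912, 1626 and 1055 normalized counts of *Mirg* and the *Fezf2 shRNA* libraries 1142, 1159, 962 and 1059. All 4 *Fezf2 shRNA* libraries lay within the range of the controls, which was set by control replicate 3 at the top. The difference on the log2 scale was -0.14 (SE 0.153, adjusted p = 0.622 from edgeR), with 0.048 without control replicate 3, -0.25 without control replicate 2, -0.089 without *Fezf2 shRNA* replicate 3 and -0.036 with the length offset. All 12 annotated *Mirg* transcripts had a lower mean with *Fezf2 shRNA*, with log2 ratios from -0.21 to -0.14, but these intervals share reads.

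The counted intervals of these hosts hold the following mature miRNAs, printed from RefSeq (GRCm38.p6) with the seed, bases 2 to 8, in capitals. They are shown to place the products of the array, since the libraries measured the host RNA and not mature miRNAs. The *Meg3* interval holds miR-1906, the *Mirg* interval holds 6 mature forms of 3 hairpins, and the *Rian* interval holds 0 of the 6 mature forms annotated in *Rian*.
miR-1906: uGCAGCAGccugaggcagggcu
miR-154-5p: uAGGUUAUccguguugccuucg
miR-154-3p: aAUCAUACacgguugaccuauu
miR-496a-5p: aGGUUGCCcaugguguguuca
miR-496a-3p: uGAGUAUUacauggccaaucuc
miR-377-5p: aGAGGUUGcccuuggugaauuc
miR-377-3p: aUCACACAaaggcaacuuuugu
These 7 miRNAs had 7 different seeds. Among the 35 mature forms inside the 3 hosts, the seed of miR-496a-5p was shared with miR-453, also from *Mirg*, and no other seed was shared.

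Annotated transcripts that do not overlap gave a 5′ part of *Rian* (chr12:109603945-109645395, 14.4% exonic) and a 3′ part (chr12:109646141-109661716, 76.4% exonic). The 5′ part had 11893, 10959.5, 11774 and 12497 normalized counts in the controls and 13855, 12886, 11307 and 15473 with *Fezf2 shRNA*. The 3′ part had 17261, 14436, 15774 and 18221 in the controls against 15545, 15234, 14178 and 14734. Thus 3 of the 4 *Fezf2 shRNA* libraries were above every control on the 5′ part. On the 3′ part all 4 were below 3 of the 4 controls, and control replicate 2 lay among them. The log2 ratio of 3′ to 5′ reads was 0.48 ± 0.076 in the controls and 0.17 ± 0.171 with *Fezf2 shRNA* (SD, n = 4 each), and the groups did not overlap. The difference of -0.31 had p = 0.0286 by a two-sided exact permutation test, the smallest p that 4 against 4 libraries can give, and an adjusted p of 0.0857 over the 6 genes divided in this way. All 9 *Rian* transcripts that start before the 3′ part had a higher mean with *Fezf2 shRNA* (log2 ratios of 0.09 to 0.29), and all 8 that start in it had a lower mean (-0.16 to -0.10). For *Meg3* and *Mirg* the groups overlapped in this ratio. The log2 ratio of 3′ to 5′ reads differed by -0.10 for *Meg3* (adjusted p = 0.343) and by 0.007 for *Mirg* (adjusted p = 0.914, exact permutation tests).

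**Figure D2:**
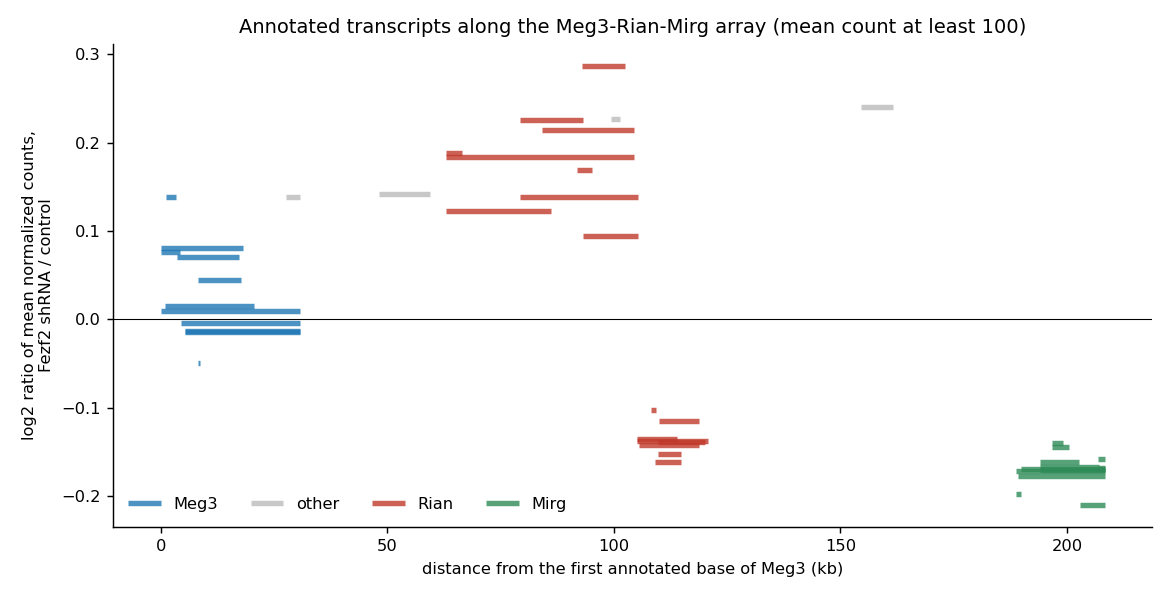
Log2 ratio of mean normalized counts (Fezf2 shRNA over control, vertical axis) for annotated transcripts with a mean count of at least 100, drawn over their span as distance from the first base of Meg3 (kb, horizontal axis). Meg3 (blue) lies near 0, Rian (red) falls into 9 transcripts between 0.09 and 0.29 and 8 between -0.16 and -0.10, and Mirg (green) lies between -0.21 and -0.14; transcripts of 1 gene share reads.

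Relative to *Meg3* in the same library, *Rian* had a log2 ratio of -0.62 ± 0.271 in the controls and -0.87 ± 0.182 with *Fezf2 shRNA* (SD, n = 4 each). For *Mirg* relative to *Meg3* the values were -3.71 ± 0.505 and -3.94 ± 0.196. Neither difference passed the test (-0.25, adjusted p = 0.286, and -0.23, adjusted p = 0.486, exact permutation tests adjusted over 4 ratios). A single ratio at the smallest p of this test, 0.0286, could not pass after adjustment over 4 ratios. With the widest transcripts the *Rian* to *Meg3* difference was 0.14. The *Mirg* to *Meg3* difference was -0.057 without control replicate 3 and -0.46 without control replicate 4. *Rtl1*, a retrotransposon-derived gene on the other strand between *Meg3* and *Rian*, is the other imprinted gene of this cluster that was tested. Its log2 fold change was 0.14 (SE 0.082, adjusted p = 0.344 from edgeR).

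*Ube3a* encodes a ubiquitin ligase that is made from the maternal copy in neurons and was counted over chr7:59228751-59306727 (plus strand, ENSMUST00000107537, 78.0 kb). It had 13708, 12381, 13109 and 12497 normalized counts in the controls and 17844, 13329, 14854 and 16015 with *Fezf2 shRNA*. *Fezf2 shRNA* replicate 2 lay below control replicate 1, and the other 3 *Fezf2 shRNA* libraries were above every control. The means were 12924 ± 613 and 15511 ± 1905 (SD, n = 4 each). On the log2 scale the fold change was 0.26 (SE 0.086, adjusted p = 0.131 from edgeR). DESeq2 placed *Ube3a* past the threshold (among 7.55% of genes tested without its prior and 7.37% with it), with an adjusted p of 0.0457 without its prior and 0.0461 with it. Without *Fezf2 shRNA* replicate 2 the log2 fold change was 0.33 (adjusted p = 0.0515), and without *Fezf2 shRNA* replicate 1 it was 0.19 (adjusted p = 0.274). The offset for interval length gave 0.19 (adjusted p = 0.421). Genes within 1.5 times the length of *Ube3a* had a median log2 fold change of 0.05, and 92.0% of these 1828 genes were at or below the value of *Ube3a*. RefSeq places *Snhg14* at chr7:59272737-60450177 on the minus strand, so that 43.6% of the *Ube3a* interval is also *Snhg14*. The use of strand in counting is not given in the sources used here, and reads of *Ube3a* and of its antisense partner cannot be told apart.

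*Snrpn* encodes a core protein of the neuronal spliceosome and was counted over chr7:59982495-60005111 (minus strand, ENSMUST00000059305, 22.6 kb). Its normalized counts were 17749.9, 18627, 19193 and 17099 in the controls and 17601, 18161, 16282 and 16287 with *Fezf2 shRNA*. Replicates 3 and 4 with *Fezf2 shRNA* were below all controls, and the other 2 lay among them. This gave a log2 fold change of -0.09 (SE 0.064, adjusted p = 0.449 from edgeR), which was -0.053 without control replicate 3 and -0.040 with the length offset. The 135 kb upstream of this interval, counted as the difference between 2 *Snrpn* transcripts that end within 7 bases of each other, had 254 ± 26.5 normalized counts in the controls and 262 ± 66.4 with *Fezf2 shRNA* (SD, n = 4 each). Per kb this was 1.88 in the controls, against 803 over the body of *Snrpn*. The log2 ratio of upstream to body reads differed by 0.10 (adjusted p = 0.789, exact permutation test). *Gm38393*, whose GENCODE M21 interval on the same strand covers 99.8% of that of *Snrpn*, had 3847 to 4781 raw counts per library against 15944 to 19514 for *Snrpn*. The interval the authors counted may therefore differ from M21 for some transcripts, and the coordinates, parts and values per kb given here rest on M21.

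*Ndn* encodes necdin, a growth suppressor of postmitotic neurons, and has a single exon at chr7:62346569-62350262 (plus strand, ENSMUST00000038775, 3.69 kb). The controls had 2703, 2643, 3197 and 2552 normalized counts of *Ndn* and the *Fezf2 shRNA* libraries 2414, 2485, 2681 and 2114. Only *Fezf2 shRNA* replicate 3 reached into the range of the controls. The log2 fold change was -0.19 (SE 0.091, adjusted p = 0.266 from edgeR), and it was -0.11 without control replicate 3 and -0.087 with the offset for interval length. Genes of like length had a median of -0.12, and 22.6% of these 726 genes were at or below the value of *Ndn*. Relative to *Snrpn*, the log2 ratio of *Ndn* differed by -0.11 (adjusted p = 0.343, exact permutation test).

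The log2 ratio of *Ube3a* to *Snrpn*, added after the rows were known, was -0.37, -0.59, -0.55 and -0.45 in the controls and 0.02, -0.45, -0.13 and -0.02 with *Fezf2 shRNA*. *Fezf2 shRNA* replicate 2 again lay among the controls. The difference was 0.35 (p = 0.0571, adjusted p = 0.229 over 4 ratios, two-sided exact permutation test). The planned ratios of *Ube3a* and *Snrpn* to *Snhg14* could not be formed. *Atp10a*, a lipid flippase gene beside *Ube3a*, had a log2 fold change of -0.37 (SE 0.213, adjusted p = 0.341 from edgeR) with wide spread in both groups.

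Within the RefSeq interval of *Snhg14*, 210 snoRNA rows with a median length of 79 bases were counted, and their sum, formed after the rows were known, is a description with no test. The sum was 17021, 14804, 18020.5 and 14679 normalized counts in the controls and 17752, 17062, 19465 and 20825 with *Fezf2 shRNA*, with overlap. The 17 rows named *Snord116l*, of the snoRNA family whose loss is linked to Prader-Willi syndrome, had 1606, 1643, 1252 and 1491 in the controls and 1771, 2065, 1916 and 2584 with *Fezf2 shRNA*. For these the groups did not overlap, and the log2 ratio of the means was 0.48. The other 193 rows gave 0.19 with overlapping groups, and their most abundant row, *Gm26504*, gave 0.06. When that row was left out, after its values were seen, the sum of the remaining 209 rows had a log2 ratio of 0.28. The groups of this sum did not overlap, unlike those of all 210 rows. Among single genes tested, 11.8% had groups that did not overlap, 7.41% with *Fezf2 shRNA* higher. The copies of these snoRNAs are nearly identical, how reads with several alignments were counted is not given in the sources used here, and reads of the unspliced host fall on the same bases, so that the values are uncertain.

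*Peg3*, a paternally expressed zinc finger gene, was counted over chr7:6703892-6730421 (minus strand, ENSMUST00000051209, 26.5 kb). It had 17897, 18913, 18092 and 19068 normalized counts in the controls and 17469, 17708, 18838 and 18375 with *Fezf2 shRNA*. The ranges of the groups largely coincided. Its log2 fold change was -0.03 (SE 0.055, adjusted p = 0.776 from edgeR), and *Peg3* was among the steadiest genes, since 6.84% of genes tested had a smaller coefficient of variation in the controls. The 3′ part, chr7:6703892-6709394, is wholly exonic and had 9659, 9916, 9824 and 10193 normalized counts in the controls and 9211, 9335, 9502 and 8936 with *Fezf2 shRNA*. All 4 *Fezf2 shRNA* libraries were below all controls there, with a log2 ratio of the means of -0.10. This part spans 5.5 kb, and genes under 10 kb had a median log2 fold change of -0.12. Of all genes tested, 4.41% had groups that did not overlap with *Fezf2 shRNA* lower. The rest of the gene, 37.1% exonic, had 8595 ± 398 normalized counts in the controls and 8851 ± 622 with *Fezf2 shRNA* (SD, n = 4 each), and its groups overlapped. The log2 ratio of 3′ to 5′ reads was 0.20 ± 0.047 in the controls and 0.07 ± 0.115 with *Fezf2 shRNA*, a difference of -0.14 (p = 0.0857, adjusted p = 0.171, two-sided exact permutation test). *Usp29*, the paternally expressed neighbour of *Peg3*, had a log2 fold change of -0.17 (SE 0.085, adjusted p = 0.282 from edgeR).

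*Trappc9* encodes a subunit of a complex for vesicle transport and was counted over chr15:72589620-73055810 (minus strand, ENSMUST00000023276, 466.2 kb). Its intron holds *Peg13*, a paternally expressed noncoding RNA of neurons, at chr15:72805600-72810324. *Trappc9* had 12256, 12601, 13094 and 11119.8 normalized counts in the controls and 11914, 11679, 12585 and 11188 with *Fezf2 shRNA*. All 4 *Fezf2 shRNA* libraries lay within the range of the controls. The fold change was -0.05 on the log2 scale (SE 0.066, adjusted p = 0.694 from edgeR), with -0.0095 without control replicate 3, -0.024 without *Fezf2 shRNA* replicate 4, -0.077 without *Fezf2 shRNA* replicate 3 and -0.093 without control replicate 4. Among 309 genes of like length, whose median was 0.28, 2.59% were at or below this value. With the offset for interval length the log2 fold change was -0.34 (adjusted p = 0.134 from edgeR).

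**Figure D3:**
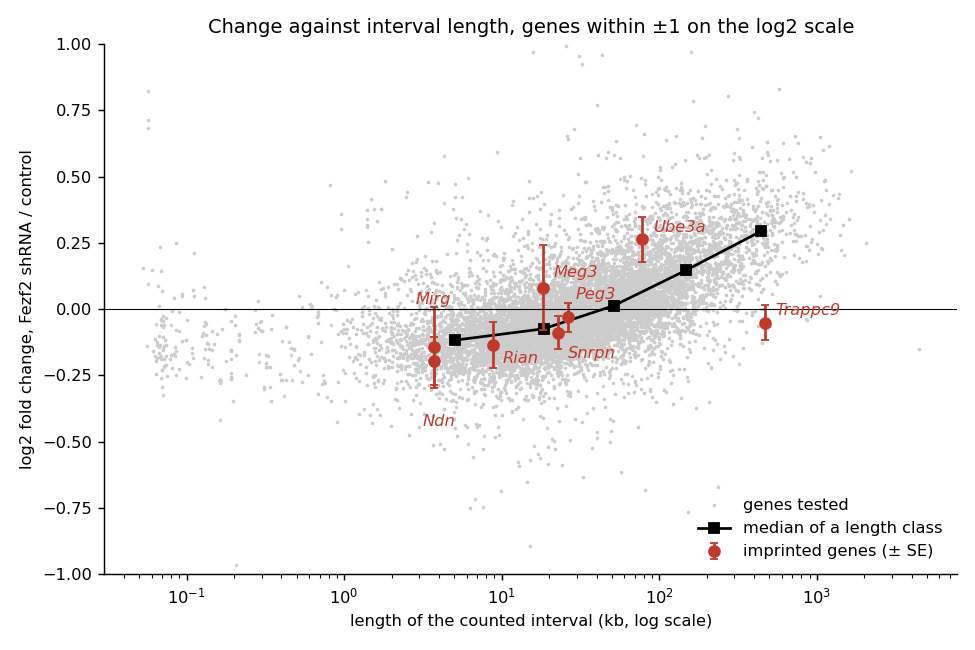
Log2 fold change (Fezf2 shRNA over control, vertical axis) against the length of the counted interval (kb, logarithmic horizontal axis) for the genes tested (grey, those within ±1), with medians of 5 length classes (black squares) and the 8 members (red, ± SE). Trappc9 at -0.05 lies below the median of 0.29 for genes over 300 kb, and Ube3a at 0.26 lies above the medians of the classes around it.

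Reads of the *Trappc9* interval were concentrated around *Peg13*. The part chr15:72799524-72852168, which makes up 11.2% of the widest *Trappc9* interval and is 3.57% *Trappc9* exon, took 64.8% to 71.1% of its reads, and its reads per kb were 17.3 times those of the rest. In this part the controls had 8828, 9207, 9499 and 7885 normalized counts and the *Fezf2 shRNA* libraries 7972, 8206, 8811 and 7419. The lowest library of both groups was replicate 4, and the groups overlapped. The 3′ part of *Trappc9*, 0.603% exonic, had 1638, 1587, 1696 and 1541 in the controls and 1891, 1761, 1791 and 1812 with *Fezf2 shRNA*. Here every *Fezf2 shRNA* library was above every control, with a log2 ratio of the means of 0.17. This part spans 209.9 kb, and genes of 100 to 300 kb had a median log2 fold change of 0.15. Of all genes tested, 7.41% had groups that did not overlap with *Fezf2 shRNA* higher. The 5′ part, 2.29% exonic, had 2148 ± 58.4 in the controls and 2228 ± 154 with *Fezf2 shRNA* (SD, n = 4 each), and the groups overlapped. The log2 ratio of reads in the part with *Peg13* to those in the rest was 1.21, 1.30, 1.29 and 1.13 in the controls and 0.89, 1.11, 1.12 and 0.88 with *Fezf2 shRNA*, without overlap. The difference was -0.23 (p = 0.0286, adjusted p = 0.0857 over 6 genes, two-sided exact permutation test). The share of these reads that came from *Peg13* itself, which spans 8.98% of the part, was not separated. The ratio of *Peg13* to *Trappc9* could not be formed.

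**Figure D4:**
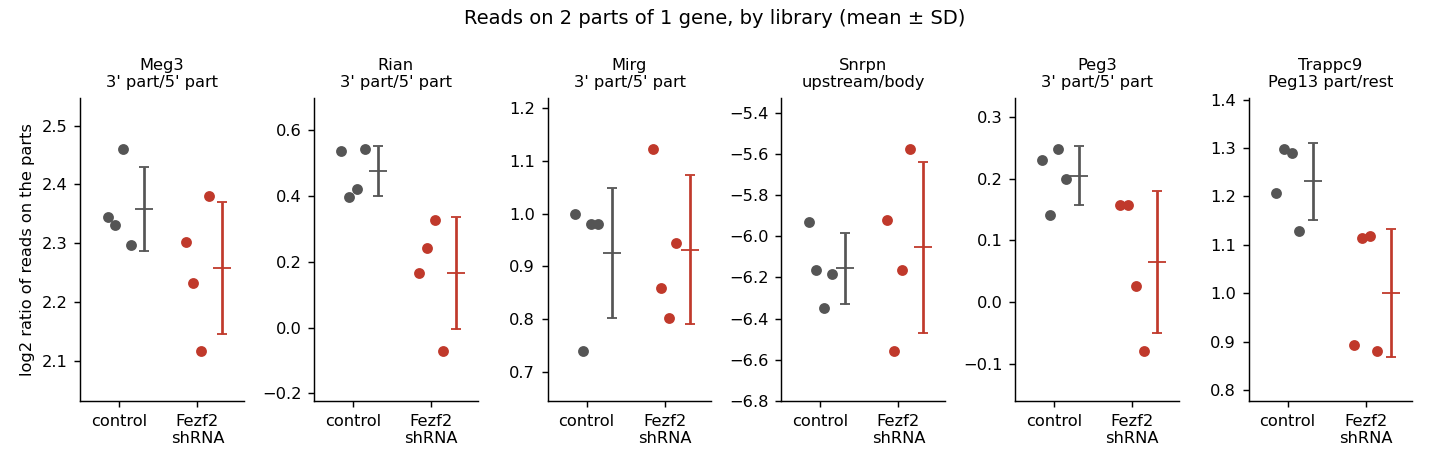
Log2 ratio of reads on 2 parts of a gene (vertical axis, a separate range for each gene, not from 0) in 4 control (grey) and 4 Fezf2 shRNA libraries (red), with mean ± SD. The groups do not overlap for Rian (0.48 and 0.17 on average) and Trappc9 (1.23 and 1.00), and they overlap for Meg3, Mirg, Snrpn and Peg3. The parts of a gene differ in length, and changes over all genes tested followed interval length.

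Beside *Trappc9* on chromosome 15, *Kcnk9*, a maternally expressed potassium channel gene, had 723, 726, 727 and 629 normalized counts in the controls and 771, 768, 849 and 845 with *Fezf2 shRNA*, without overlap. Its log2 fold change of 0.20 did not pass the threshold (SE 0.081, adjusted p = 0.205 from edgeR). Of all genes tested, 7.41% likewise had groups that did not overlap with *Fezf2 shRNA* higher. *Ago2*, the Argonaute gene on the other side, had a log2 fold change of 0.11 (SE 0.091, adjusted p = 0.502). In the clusters of the members, 17 other imprinted genes were listed, 12 had a row and 5 were tested. *Dlk1*, *Dio3*, *Magel2*, *Mkrn3*, *Peg12*, *Zim1* and *Chrac1* did not pass the filter on low counts, and *Begain*, *Snurf*, *Zim2*, *Zim3* and *Zfp264* were not matched to a row.

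Of 52 other imprinted genes listed from textbook knowledge, 46 had a row and 27 were tested. By edgeR 1 of the 27 increased and 0 decreased, which is 3.7% beside 2.19% of all genes tested. At an unadjusted p under 0.05 there were 5, or 18.5% against 19.7% of genes tested, all with higher counts in *Fezf2 shRNA* M1. The median log2 fold change was 0.01, with 16 genes above 0 and 11 below. The gene past the threshold was *Kcnq1*, a potassium channel gene counted over chr7:143107254-143427042 (319789 bases). It had 6152, 6338, 6995 and 5929 normalized counts in the controls and 9157, 7609.7, 8738 and 8421 with *Fezf2 shRNA*, without overlap. Its log2 fold change was 0.42 (SE 0.074, adjusted p = 0.0273 from edgeR). With the offset for interval length it was 0.17 (adjusted p = 0.311), and the call was lost in 5 of 8 fits that left out 1 library, namely without control replicates 1 and 4 and *Fezf2 shRNA* replicates 1, 3 and 4 (adjusted p of 0.0971, 0.0773, 0.0782, 0.0797 and 0.0649). *Kcnq1ot1*, a paternally expressed noncoding RNA, spans 26.1% of that interval on the other strand and had no row of its own, so that their reads cannot be told apart. Outside the clusters of the members, the next smallest p values belonged to *Sfmbt2* (0.31, adjusted p = 0.117), *Sgce* (0.22, adjusted p = 0.189), *Grb10* (0.28, adjusted p = 0.228) and *Bcl2l1* (-0.11, adjusted p = 0.293, edgeR). These encode a Polycomb-group protein, a sarcoglycan, a growth factor receptor adaptor and an inhibitor of apoptosis, in that order. DESeq2 also called *Sfmbt2* (adjusted p = 0.0471 without its prior and 0.0474 with it), among 7.55% and 7.37% of genes tested. The groups of *Sfmbt2* did not overlap, as for 11.8% of genes tested. With the offset for interval length its log2 fold change was 0.11 (adjusted p = 0.735 from edgeR).

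**Figure D5:**
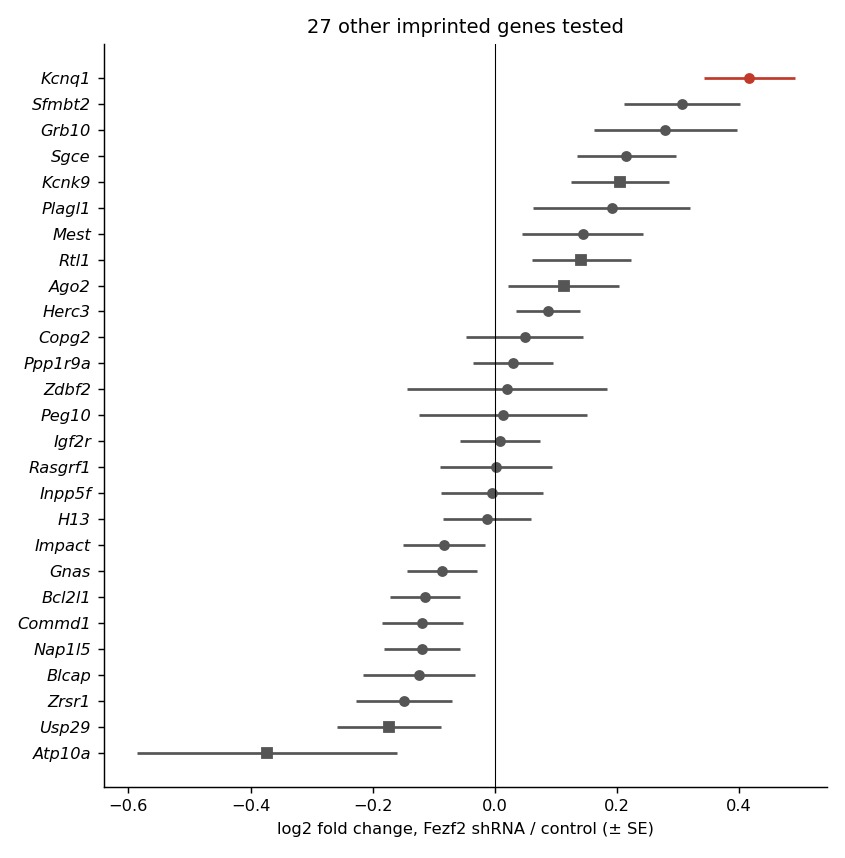
Log2 fold change ± SE (horizontal axis, Fezf2 shRNA over control) of the 27 other imprinted genes tested. Squares mark genes in the clusters of the members, circles mark other clusters, and Kcnq1 (red, 0.42) is the gene past the threshold.

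Genes whose pattern was most like that of *Meg3* over the 8 libraries were the centrosomal genes *Cep131* (Pearson r = 0.954 of log2 CPM) and *Cep95* (0.937). For *Peg3* they were the phospholipase gene *Plcg1* (0.976) and the fatty acid desaturase gene *Scd2* (0.958). These are descriptions over 8 libraries that share depth and normalization.

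Markers of the cells in the dissected tissue were present in every library, with 208609 to 232507 normalized counts summed over 8 neuron markers in the controls and 212825 to 227384 with *Fezf2 shRNA*. None of the 9 marker lists had a member past the threshold. The sum of 6 oligodendrocyte markers ranged from 61184 to 111109.9 in the controls and from 45672 to 74903 with *Fezf2 shRNA*, with a median log2 fold change of -0.53 and overlap. The sum of 4 upper-layer markers was 13935 to 16164 in the controls and 17424 to 19312 with *Fezf2 shRNA*, without overlap. Their median log2 fold change was 0.27. Among single genes tested, 11.8% had groups that did not overlap, 7.41% with *Fezf2 shRNA* higher. Sums of 6 markers of layers 5 and 6 were 15974 to 19769.8 and 13965 to 18516, with overlap and a median of -0.09. Interval length, which changes over all genes tested followed, was not taken into account for the markers. For 6 astrocyte markers the sums were 29751 to 34103 and 25438 to 32103, and the lists of oligodendrocyte precursor, microglia, endothelial and striatal markers also overlapped. The part of cell makeup in the values of the members was not tested.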

How the data were processed

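Total RNA of M1 from 4 *Fezf2 shRNA* and 4 *non-silencing shRNA* libraries was sequenced, and the authors deposited raw counts per Ensembl transcript. According to the study's methods, reads were mapped to mm10 with tophat2 and assigned to Ensembl annotations with BEDTools multiCov; the submitters' processing notes list bcl2fastq 1.8.4, TopHat2 2.1.1, bedtools 2.26.0, R 3.2.5 and DESeq2 1.10.1. A second deposited table, with the authors' base means, fold changes and p-values per gene, was not used. Transcripts were matched to GENCODE M21 (91320 of 94647, and 1.82% of counts unmatched), and groups follow the titles. In 99.3% of 124221 nested transcript pairs of a gene the outer interval had at least the counts of the inner, and in 96 of 96 pairs of the members, as whole intervals with introns would give. Parts of genes are transcripts that do not overlap (*Meg3*, *Rian*) or include a difference between the counts of overlapping transcripts (*Mirg*, *Snrpn*, *Peg3*, *Trappc9*).

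The transcript with the lowest Ensembl number stood for a gene, genes above 8 CPM in 4 or more libraries were tested, and edgeR 4.0.16 in R 4.3.3 (TMM, quasi-likelihood test without covariates, Benjamini-Hochberg over all genes tested) gave log2 fold changes, standard errors (SE) and p-values. A simulation with known changes was run first. Alternatives used DESeq2 1.42.0 and its size factors, library totals, TMM without the 10 most abundant genes, other filters (more than 1 CPM, or none), the widest transcript, an offset for interval length (loess, span 0.3), a replicate block, and each library left out. Ratios within a library used a pseudocount of 1, parts with a mean of at least 100 reads, and two-sided exact permutation tests over 8 libraries (smallest p 0.0286), in Python 3.11.15 with scipy 1.17.1. Replicate libraries differed by far more than sampling noise (chi-square of at least 35.1 per degree of freedom). For most members the spread between replicates, not counting error, limits the precision. Per the series text n was 4 animals per treatment, with 1 library taken for each.

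The members and lists were chosen with earlier results of these data known, and the limits of the parts after the counts were seen. Genes named are the members, *Fezf2*, other imprinted genes of their clusters that were tested, from other clusters those past the threshold and the 5 with the smallest p, overlapping genes where a result turns on them, and the 2 genes most correlated with *Meg3* and with *Peg3*. *Gm26504* was named after its values were seen. Promoters and miRNAs were read from RefSeq tables (GRCm38.p6), and motif searches covered both strands.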

Additional observations from a re-analysis of the deposited data

Results flagged for a closer look

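In the log2 ratio of 3′ to 5′ reads of *Mirg*, control replicate 2 lay far from the other controls, with a gap of 0.923 of the range of the group above Dixon's critical value for 4 samples. It was 0.74 in that library and 0.98 to 1.00 in the other 3 controls, and 36 groups of values were examined, of which chance flags about 1 in 20.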

How the results depend on the processing

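Over the alternatives, the count of members past the threshold was 0 except with DESeq2, without or with its prior, where it was 1 (*Ube3a*). DESeq2 also placed *Fezf2* past the threshold, at -0.28 without its prior and -0.25 with it. By edgeR *Fezf2* did not pass, at -0.18 with the length offset (adjusted p = 0.4335) and -0.29 with the replicate block (adjusted p = 0.126). Direction reversed for *Meg3* without control replicate 2 (-0.028, with a range to 0.30 over the libraries left out), *Rian* with the widest transcript (0.18), the *Rian* to *Meg3* ratio with the widest transcripts (0.14), *Mirg* without control replicate 3 (0.048) and *Peg3* with the length offset (0.0049, and 0.0048 with the replicate block and the offset). When 1 library was left out, the 3′ to 5′ ratio of *Mirg* ranged from -0.057 to 0.050 and the upstream to body ratio of *Snrpn* from -0.057 to 0.27. For *Rian* the same ratio stayed between -0.36 and -0.23, and for *Trappc9* between -0.27 and -0.19. The cause of these changes was not tested, except that the widest *Rian* transcript covers another part of the gene. With 4 against 3 libraries the exact test cannot pass the threshold. With 4 against 4, a single ratio at the smallest possible p cannot pass it after adjustment over the ratios tested. Whether replicate numbers pair the libraries was not settled. Correlations of same-numbered deviations ran from -0.13 to 0.31, and 2 of 4 controls correlated best with their own number. A replicate block alone moved genes past the threshold from 218 to 89 and left 0 members there. With it the SE fell from 0.160 to 0.0975 for *Meg3*, from 0.091 to 0.061 for *Ndn* and from 0.086 to 0.068 for *Ube3a*. For *Mirg* and *Peg3* the SE rose (0.153 to 0.158 and 0.055 to 0.058). Over all genes the count past the threshold was 752 with DESeq2, 111 at more than 1 CPM, 85 without a filter and 2 with the length offset, and 0 to 401 when a library was left out.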
